A study of Mus musculus with 2 samples.

Results

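The 78 genes described here are the mouse genes named for proteins of the mitochondrial ribosome. They were chosen as every gene on the array whose name starts with Mrps or Mrpl followed by a digit. They were 78 of the 26575 genes on the array and were covered by 132 probes, each printed as 1 spot. By name, 29 belong to the small subunit (Mrps) and 49 to the large subunit (Mrpl). All 78 were measured, among 16692 measured genes in all, and all 78 were well above background in all 4 channels of the 2 arrays. Kidney RNA came from male CD-1 mice, aged 7 weeks when the diets began, which for 1 week received AIN-93G feed holding 0.2% adenine by weight. One group received adenine alone. In the other the same adenine diet also held 2% by weight of HMPA, 3-(4-hydroxy-3-methoxyphenyl)propionic acid. Adenine was thus shared by both groups, its feeding is a standard model of chronic kidney disease, and no mice without adenine were on the arrays. The titles give an age of 12 weeks and 5 mice, and do not say whether that is the number per diet or whether RNA was pooled.

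Mitochondria make a small set of respiratory-chain proteins on their own ribosomes. The RNA of these ribosomes is encoded by mitochondrial DNA, whereas their proteins are encoded in the nucleus, made in the cytosol and imported. Some of the proteins descend from bacterial ribosomal proteins and others do not. The kidney, and its proximal tubule above all, is rich in mitochondria because salt and solute reabsorption depends on oxidative phosphorylation.

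Each array compared both diets by dye. Array 1 carried the HMPA sample in Cy5 and array 2 carried it in Cy3, so the pair is a dye swap. The titles end in exp1 and exp2, which no label explains. No label names separate animals or extracts for the arrays, and they were taken as 1 RNA sample per diet measured 2 times. No p-value can be given, because the spread between animals was not measured. Ratios are log2 of HMPA over adenine alone, so that 1 is a doubling. The figure after ± says how far each array lay from the mean of both, which is a technical error only if the RNA was shared. A gene is called higher or lower under the 1.5-fold rule if its mean ratio was at least 1.5-fold and the log2 ratio of each array was at least 0.32 in size the same way. The 2-fold rule asked for a mean of at least 2-fold and at least 1.5-fold on each array. Between 57.9% and 67.9% of the 43379 gene spots were well above background in a channel, and none was saturated.

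The ratios of the mitochondrial ribosome genes lay mostly above 0, by modest amounts, and 26 of the 78 were called higher with HMPA. Their median ratio was 0.44, against -0.04 for all 16692 measured genes. These 26 (33.3%) passed the 1.5-fold rule, beside a background of 13.5% of all measured genes. Only 3 were lower, beside a background of 16.2%. None passed the 2-fold rule in either direction, beside backgrounds of 6.65% higher and 7.72% lower. The size of the shift depended on how the dyes were balanced. With each array centred on its median in place of the intensity-dependent loess curve, 5 members were higher and 3 lower, and the share of higher among called members went from 89.7% to 62.5%. Of all measured genes 7.81% were higher and 23.9% lower under that centring, and the share of higher among all calls went from 45.5% to 24.6%. The 5 higher members (6.41%) are thus no larger a share than the background there. Under that centring the median of all measured genes itself moved to -0.22 and the members' median to 0.23. The members' median minus that of all genes was 0.47 with loess and 0.45 with median centring. When the measured genes were then set to a median of 0, an alternative chosen after seeing the data, 23 members (29.5%) were higher and 2 lower, beside 13.2% and 16.5% of all measured genes.

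Most members shifted the same way on both arrays. The ratio was above 0 on both arrays for 64 of 78 (82.1%), where 35.9% of all measured genes were. It was below 0 on both for 4 members, where 42.9% of all measured genes were, and 10 members had opposite signs. Under median centring 26 members (33.3%) were above 0 on both arrays, while the median of all measured genes itself lay at -0.22. The share of all measured genes above 0 on both arrays was not taken under that centring, so the count has no background beside it. The members' median was 0.39 on array 1 and 0.48 on array 2. The mean ratios ran from -0.95 to 0.98, with quartiles at 0.27 and 0.66. By size, 12 members lay between 0.75 and 1, 19 between 0.5 and 0.75, 30 between 0.25 and 0.5 and 12 between 0 and 0.25. A further 2 lay between -0.5 and 0, and 3 between -1 and -0.5. The 3 lowest genes therefore stand below an empty stretch that runs from Mrpl33 at -0.75 to Mrps18c at -0.15.

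**Figure D1:**
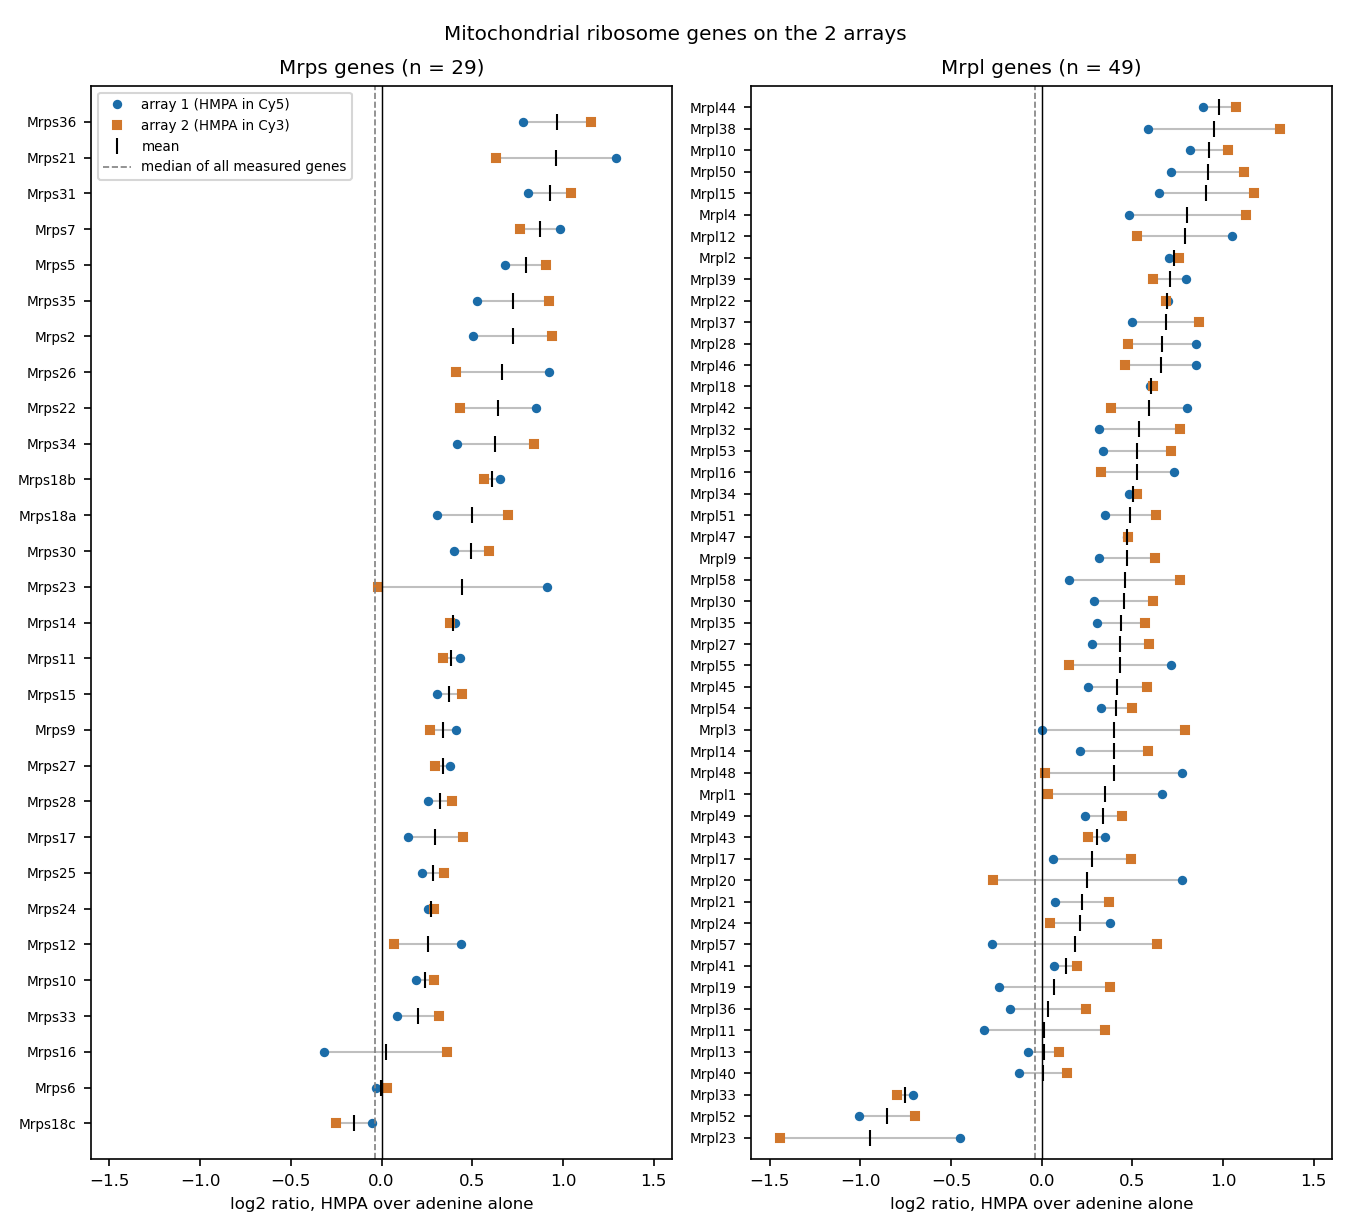
Log2 ratio of HMPA over adenine alone (x axis) for each mitochondrial ribosome gene (y axis), with 29 Mrps genes on the left and 49 Mrpl genes on the right; blue circles are array 1, orange squares array 2, black ticks their mean, and the dashed line is the median of all measured genes (-0.04). Most genes lie right of 0 on both arrays, while Mrpl23, Mrpl52 and Mrpl33 lie left of it on both.

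The arrays agreed less closely within this narrow range than over all genes. Pearson's r between the ratios of array 1 and array 2 was 0.51 across the 78 members and 0.89 across the 16692 measured genes. Genes are not independent replicates, and these arrays were taken to share their RNA. That error had a median of 0.16 over members and 0.11 over all measured genes. The widest disagreement above 0 was that of Mrpl20, at 0.77 on array 1 and -0.27 on array 2. Mrps23 followed at 0.91 and -0.02, and Mrpl57 at -0.27 and 0.64. Those 3 genes were named after their values were seen, and no direction was drawn for them.

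**Figure D2:**
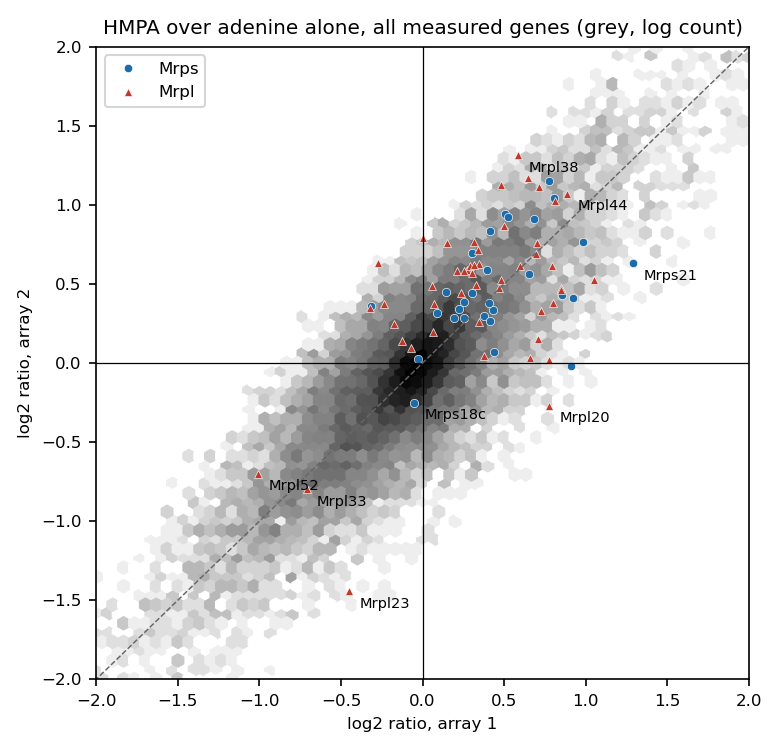
Log2 ratio of HMPA over adenine alone on array 1 (x axis) against array 2 (y axis); grey hexagons hold all measured genes, darker for more genes on a log scale, with blue circles for Mrps and red triangles for Mrpl genes. The dashed line marks equal ratios, and 64 of 78 members lie above and right of both 0 lines; points beyond 2 in size are outside the axes.

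Genes with small-subunit names had a median ratio of 0.39, with 11 of 29 higher and 0 lower by the 1.5-fold rule. Of all measured genes 13.5% were higher and 16.2% lower, and these shares apply to the counts by family too. Of the 29, 25 were above 0 on both arrays, where 35.9% of all measured genes were. The 18 of them that belong to bacterial protein families had a median of 0.36 with 5 higher. The 11 listed as specific to mitochondria, meaning not of a bacterial ribosomal family, had a median of 0.63 with 6 higher. That list follows the gene names, and its higher genes include Mrps36, whose product is also known from another complex. On arrays 1 and 2 the medians of those 11 were 0.53 and 0.43, beside 0.36 and 0.38 for the bacterial families.

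The highest gene with a small-subunit name was Mrps36. Its product was first described with the small subunit and is also known as Kgd4 of the 2-oxoglutarate dehydrogenase complex. Its signal, before the dyes were balanced, was 1562 with adenine alone and 1568 with HMPA on array 1, and 1302 and 3215 on array 2. After normalisation its ratio was 0.78 on array 1 and 1.15 on array 2, for a mean of 0.96 ± 0.19. Raw signals of the dyes are not on 1 scale, and the loess curve puts them on one before the ratio is taken.

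Mrps21, of the bacterial S21 family, had ratios of 1.29 and 0.63, for a mean of 0.96 ± 0.33. Mrps31, a small-subunit protein specific to mitochondria, had 0.81 and 1.05, for a mean of 0.93 ± 0.12. Mrps7, which binds ribosomal RNA in the head of the small subunit, had 0.98 and 0.77, for a mean of 0.87 ± 0.11, and its second probe gave 1.22 ± 0.30. For each of these genes both arrays were well above 0. Mrps5, whose bacterial relative helps to keep decoding accurate, had 0.68 and 0.91, for a mean of 0.80 ± 0.11.

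At the other end of the Mrps genes lay Mrps18c, Mrps6 and Mrps16. Mrps6, of the bacterial S6 family, had -0.03 on array 1 and 0.03 on array 2. Mrps16 had -0.31 and 0.36, so that its mean of 0.02 ± 0.34 hides opposite signs. Neither gene had a direction on these arrays.

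The genes Mrps18a, Mrps18b and Mrps18c encode related proteins of the bacterial S18 family, of which the product of Mrps18a sits in the large subunit. Mrps18a had ratios of 0.31 and 0.70, for a mean of 0.50 ± 0.20. Mrps18b had 0.65 and 0.56, for a mean of 0.61 ± 0.04, and was higher by the 1.5-fold rule, though not on array 2 alone. Its probe was dim, with signals from 121 to 199, and its value ranged from 0.30 with median centring to 0.97 with the scanner software's own ratios. Mrps18c had -0.05 and -0.25, for a mean of -0.15 ± 0.10, and was the only Mrps gene below 0 on both arrays. The ratio of Mrps18c thus lay below both relatives on each array.

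Genes with large-subunit names had a median ratio of 0.44, with 15 of 49 higher and 3 lower. Of the 49, 39 were above 0 on both arrays. The shares of all measured genes were 13.5% higher, 16.2% lower and 35.9% above 0 on both. The 30 of bacterial families had a median of 0.44 with 8 higher and 2 lower. The 19 listed as specific to mitochondria had a median of 0.46 with 7 higher and 1 lower. Array 2 gave the Mrpl genes a higher median (0.53) than array 1 (0.35), while the Mrps genes stood at 0.41 on both. The medians of these groups, which were split by name only, therefore change order between the arrays.

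Mrpl44 had the highest mean ratio of all members with loess and the brightest probe. With the mean over kept probes Mrps7 (1.05) and Mrps36 (0.99) were higher than Mrpl44 (0.97). With median centring Mrpl50 (0.77) and Mrps36 (0.75) were higher than Mrpl44 (0.72). Mrpl44 is a large-subunit protein with an RNase III-like fold. Its raw signal was 1013 with adenine alone and 1071 with HMPA on array 1, and 902.8 and 2057 on array 2. Its ratios were 0.89 and 1.07, for a mean of 0.98 ± 0.09, or 1.97-fold. Its probe lies at chr1:79777892-79777951 (mm9, plus strand). Its other kept probes gave 1.00 ± 0.28 and 0.94 ± 0.22.

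Mrpl38, a member of the phosphatidylethanolamine-binding protein family built into the large subunit, had 0.59 and 1.32, for a mean of 0.95 ± 0.36. Mrpl50, a mitochondria-specific protein, had 0.71 and 1.12, for a mean of 0.91 ± 0.20. Mrpl15, of the bacterial L15 family, had 0.64 and 1.17, for a mean of 0.91 ± 0.26. All 3 stood higher on array 2 than on array 1. Mrpl4, whose bacterial relative lines the exit tunnel for the new protein, had 0.48 and 1.12, for a mean of 0.80 ± 0.32, and array 1 alone did not carry it past 1.5-fold.

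The stalk of the large subunit, where elongation factors bind, contributed Mrpl10 and Mrpl12. Mrpl10 had 0.81 and 1.02, for a mean of 0.92 ± 0.10. Mrpl12, which is also known to bind the mitochondrial RNA polymerase, had 1.05 and 0.53, for a mean of 0.79 ± 0.26. On array 2 alone it was short of 1.5-fold. Its raw signals were 4448 with adenine alone and 5884 with HMPA on array 1, and 5611 and 9785 on array 2. Mrpl11, which lies at the base of the same stalk, did not follow them, at -0.32 on array 1 and 0.35 on array 2.

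A further 6 large-subunit genes were near 0. Mrpl40 and Mrpl13 had mean ratios of 0.01 ± 0.13 and 0.01 ± 0.08. Mrpl36 and Mrpl19 had 0.04 ± 0.21 and 0.07 ± 0.30. Each of these 4 had opposite signs on the arrays. Mrpl41, at 0.13 ± 0.07, was above 0 on both arrays, and Mrpl11 was given above.

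The 3 lower genes were Mrpl23, Mrpl52 and Mrpl33, all of the large subunit and all among the brightest members. The signal of Mrpl33, of the bacterial L33 family, was 14996 with adenine alone and 6103 with HMPA on array 1, and 13120 and 9405 on array 2. Its ratios were -0.71 and -0.80, for a mean of -0.75 ± 0.04, and HMPA was below adenine alone on both arrays. The signal of Mrpl52, a protein found only in mitochondria, was 9474 with adenine alone and 2992 with HMPA on array 1, and 9096 and 6796 on array 2. Its ratios were -1.01 and -0.70, for a mean of -0.85 ± 0.16. The signal of Mrpl23, of the L23 family at the exit of the tunnel, was 7159 with adenine alone and 3322 with HMPA on array 1, and 8986 and 3916 on array 2. Its ratios were -0.45 and -1.44, for a mean of -0.95 ± 0.50, and array 1 alone left it short of 1.5-fold. In all 3 genes the raw signal with HMPA was the lower in either dye. These genes lie on chromosomes 7, 14 and 5, so they are not neighbours.

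The probes that measured the lower genes are shown by the first 30 of their 60 bases, because the probes of Mrpl33 and of Mrpl52 gave values of different size. The first line of each gene is its brightest probe, and the letters are those of the array file.
Mrpl23, chr7:149726578-149726637: caggatttggaccacagaccctagtgagca
Mrpl33, chr5:31924925-31924984: ggacagagccgaaagagtccttcacagaga
Mrpl33, chr5:31965684-31965743: caggaaaggaaaaactgaagtcatttttag
Mrpl52, chr14:55048507-55048566: aggaacatgatctcaaacctaaagggactt
Mrpl52, chr14:55046463-55046522: agaaggataaaactctcacatgtgtggtga
Coordinates are those of mm9, all on the plus strand. The second probe of Mrpl33 gave -0.11 ± 0.05 at signals of 26.0 to 46.3, and was not well above background in all 4 channels. Averaging it with the bright probe left Mrpl33 at -0.43, which is short of the 1.5-fold rule. By the scanner software's own ratios the bright probe gave -0.66 and the second -0.83. The gap between them thus depends on how dim signals were processed. The second probe of Mrpl52 gave -0.48 ± 0.27 at signals of 39.5 to 101.8, in the same direction as the first. One more probe of Mrpl52 was too dim to keep. Mrpl23 had 1 probe, so that no second sequence checks it.

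Elsewhere the probes of a gene mostly gave like values. Among the 31 members with 2 or more kept probes, 2 (6.45%) had probes of opposite sign and 4 (12.9%) had probes over 1.5-fold apart. Over the 6036 measured genes with 2 or more kept probes the shares were 27.8% and 23.3%. Probes of a gene near 0 differ in sign more readily, and the members' median lay further from 0 than that of all genes. The shares of opposite sign therefore do not compare probe agreement on equal terms. The opposite signs were small, with Mrps25 at 0.28 and -0.03 and Mrps6 just under 0 and at 0.15. The 4 genes with wider gaps were Mrpl33, Mrpl38, Mrps2 and Mrps5, each with all of its probes on 1 side of 0. The gap of Mrpl33 rests on its dim second probe, which the scanner software's own ratios put at -0.83. Mrpl38 had probes at 0.95, 0.65 and 0.18, and Mrps5 had 4 at 0.99, 0.80, 0.38 and 0.31.

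**Figure D3:**
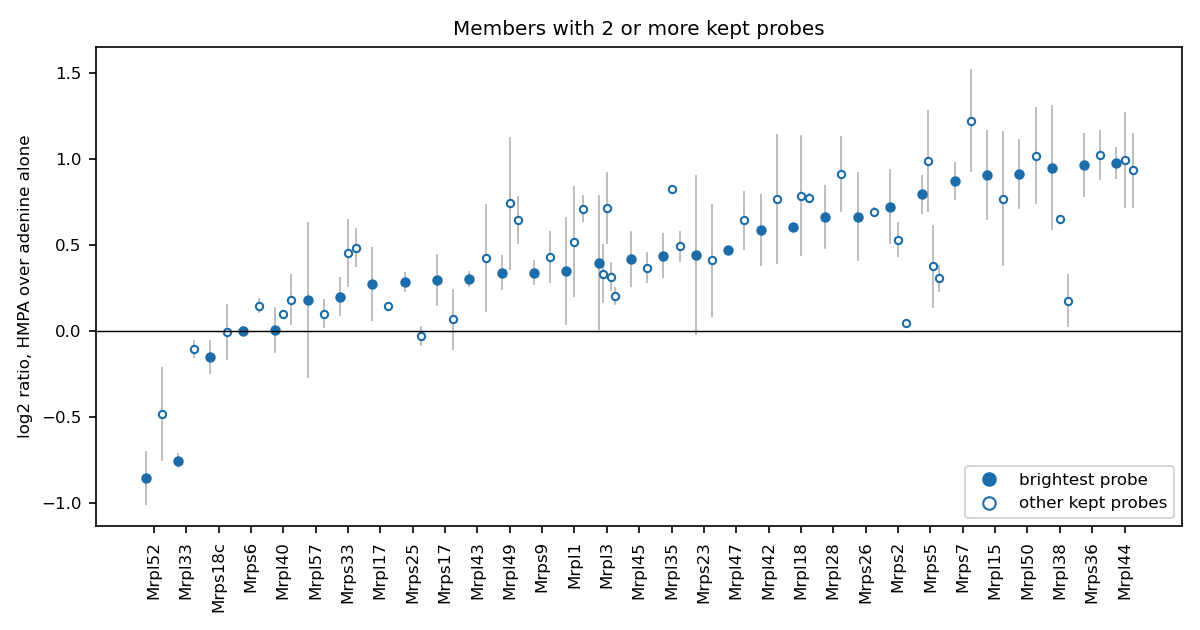
Mean log2 ratio of HMPA over adenine alone (y axis) for each kept probe of the 31 members with 2 or more (x axis, ordered by the value of the brightest probe); filled circles are the brightest probe, open circles the others, and bars reach to the 2 arrays. Mrps25 and Mrps6 have probes on both sides of 0.

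Mrps2, whose bacterial relative helps to hold the mRNA, shows how a call can depend on the probe taken. Its probes are printed by their first 30 bases with mm9 positions on the plus strand.
Mrps2, chr2:28326283-28326342: caaagaaggaaatccatacctgtttcccac
Mrps2, chr2:28325545-28325604: cacactagatagccagccctcttctgagca
Mrps2, chr2:28324181-28324240: accttgacactagtccctcggtgttgcaaa
In that order the probes gave 0.72, 0.53 and 0.05. The mean over all 3 was 0.43, below the 1.5-fold rule, and array 1 alone gave the brightest probe 0.50. The exon or intron of each probe is not given here, since no gene annotation on mm9 was used.

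Ratios were lower among the brighter members. The 26 dimmest members had a median of 0.65 with 15 higher, and the middle 26 a median of 0.42 with 6 higher. The 26 brightest had a median of 0.31 with 5 higher and all 3 lower genes. Of all measured genes, at any signal, 13.5% were higher and 16.2% lower. Across the 78 members r between mean ratio and mean log2 signal was -0.38, while across all measured genes it was 0.04. The points share the same 2 arrays, and the part of signal level in the members' ratios was not tested. The members lay on many chromosomes, most often on 11 (11 members) and 17 (8 members).

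Promoters were taken from RefSeq on GRCm38.p6 as 250 bases before to 50 after each start, and 69 of the 78 genes had at least 1, for 75 promoters. Exact matches on both strands were counted for 6 motifs of factors known for genes of mitochondria or of growth. They are GCATGCG (NRF1), CCGGAAG (ETS factors, among them GABPA), AAGATGG (YY1), GGGCGG (GC box), AAGGTCA (the half-site of ERR receptors) and CACGTG (E-box). None of the motifs holds another whole. The ETS motif was in 34.7% of the members' promoters, in 15% of the 15012 promoters of measured genes and in 8.86% of all 32851 promoters in the table. The YY1 motif was in 17.3%, 6.51% and 6.34% in that order. The NRF1 motif was in 10.7%, 5.54% and 3.58%.

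The other motifs differed less from the measured genes. The GC box was in 52.0% of the members' promoters and 57.6% of those of measured genes (35.7% of all). The ERR half-site was in 5.33%, 3.60% and 4.72%, and the E-box in 9.33%, 9.33% and 7.15%. Promoters of 1 gene can overlap, and those of Mrpl2 hold the same E-box. By gene, 5 of 69 members held an E-box and 34 a GC box. The median GC content was 58.7% for the members' promoters and 59.7% for those of measured genes (52.7% of all). A match is only a match of letters. Members with and without the ETS motif had median ratios of 0.42 and 0.44, and for the YY1 motif these were 0.39 and 0.44. The 8 genes with an NRF1 motif had a median of 0.57 and those without it 0.42. Of those 8 genes 4 were higher, beside 33.3% of all 78 members and 13.5% of all measured genes. For the ETS motif 6 of 26 genes were higher, and for the YY1 motif 3 of 13. These counts were 11 of 34 for the GC box, 2 of 4 for the ERR half-site and 2 of 5 for the E-box. Whether a motif goes with the calls was not tested.

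The 150 bases before the start are printed for a pair of the highest and a pair of the lowest members that hold a motif and overlap no other gene in RefSeq, with the motifs in capitals, so that both ends of the list can be compared. Positions are on GRCm38.p6, with Mrps36 on the minus strand and the others on the plus strand, each read 5′ to 3′ along its gene.
Mrps36, chr13:100744660-100744809: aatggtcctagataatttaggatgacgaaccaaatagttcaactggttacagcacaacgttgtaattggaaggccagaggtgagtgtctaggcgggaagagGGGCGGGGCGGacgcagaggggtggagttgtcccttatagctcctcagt
Mrpl10, chr11:97041432-97041581: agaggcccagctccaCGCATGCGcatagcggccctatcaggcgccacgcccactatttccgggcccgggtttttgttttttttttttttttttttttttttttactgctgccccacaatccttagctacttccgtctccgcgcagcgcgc
Mrpl52, chr14:54426759-54426908: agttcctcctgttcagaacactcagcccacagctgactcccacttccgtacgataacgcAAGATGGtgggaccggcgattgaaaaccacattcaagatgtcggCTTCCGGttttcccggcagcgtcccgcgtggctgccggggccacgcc
Mrpl23, chr7:142532882-142533031: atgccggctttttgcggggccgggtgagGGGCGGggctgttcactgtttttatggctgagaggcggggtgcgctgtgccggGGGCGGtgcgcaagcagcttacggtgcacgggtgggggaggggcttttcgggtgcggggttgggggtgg
The capitals mark overlapping GC boxes in Mrps36, NRF1 matches on both strands that share bases in Mrpl10, a YY1 and an ETS match in Mrpl52, and separate GC boxes in Mrpl23. The GC box was thus present upstream of a gene with a ratio of 0.96 and of one at -0.95. An NRF1 match was present before Mrpl10 (0.92) and also before Mrpl33 (-0.75).

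Mrps11 and Mrpl46 are a head-to-head pair on chromosome 7, one protein of each subunit, with 41 bases between their RefSeq starts. The bases between the starts are printed on the plus strand, toward Mrps11, with a GC box in capitals.
Mrpl46 to Mrps11, chr7:78783090-78783130: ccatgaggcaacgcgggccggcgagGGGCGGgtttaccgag
Mrpl46 had ratios of 0.85 and 0.46, for a mean of 0.66 ± 0.20, and Mrps11 had 0.43 and 0.34, for a mean of 0.39 ± 0.05. Both genes were above 0 on both arrays, and on each array Mrpl46 was the higher. Mrpl46 was past the 1.5-fold rule, but short of 1.5-fold on array 2 alone. This pair was singled out after its position and values were seen.

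Proteins of the mitochondrial ribosome with other names gave mixed values. Of 5 such genes 1 was higher, Gadd45gip1 at 0.62 ± 0.20, beside 13.5% of all measured genes. The other 4 were not past the rule and are named after their values were seen. Dap3, a small-subunit protein that binds GTP, had 0.28 and 0.94, and Chchd1 had -0.15 and -0.01. Ptcd3 and Aurkaip1 had opposite signs on the arrays.

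Genes that build the ribosome and modify its RNA had a median of 0.39. Of these 25 genes 6 were higher and 0 lower, beside 13.5% and 16.2% of all measured genes. Trmt2b, which methylates uridine in mitochondrial RNA, was at 1.11 ± 0.14. Mettl15, which methylates the small-subunit RNA, was at 0.94 ± 0.27. Mtg1, a GTPase of large-subunit assembly, was at 0.86 ± 0.10, and Rpusd3, a pseudouridine synthase, at 0.84 ± 0.19.

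Translation factors had a median of 0.75 over 13 measured of 14 genes, beside 0.44 for the ribosomal proteins. All 13 were above 0 on both arrays, 7 were higher by the 1.5-fold rule and 3 by the 2-fold rule. The shares of all measured genes were 35.9%, 13.5% and 6.65% in that order. Gfm1, the elongation factor that moves the ribosome along the mRNA, had 1.01 and 1.46, for a mean of 1.23 ± 0.23. Gfm2, which recycles ribosomes, had 1.14 and 0.93, for a mean of 1.04 ± 0.10. Taco1, needed to translate a cytochrome oxidase subunit, was at 1.05 ± 0.20, and Tufm, which delivers aminoacyl-tRNA, at 0.96 ± 0.12. Whether the factors differ from the ribosomal proteins was not tested.

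Of 20 genes that charge mitochondrial tRNA 9 were higher and 1 was lower, with a median of 0.60. The background here and for the next list was 13.5% of all measured genes higher and 16.2% lower. Gatb, a subunit of the enzyme that completes glutaminyl-tRNA, was at 1.34 ± 0.33, Rars2 for arginine at 1.19 ± 0.38 and Yars2 for tyrosine at 0.88 ± 0.45. Lars2, the leucine enzyme, went the other way with -1.53 and -2.02, for a mean of -1.78 ± 0.24. Genes that maintain and transcribe mitochondrial DNA or process its RNA had a median of 0.53, with 10 of 24 measured higher and 0 lower. Tfb2m, a mitochondrial transcription factor, was at 1.03 ± 0.07, Lrpprc, which stabilises mitochondrial mRNA, at 0.95 ± 0.15, Fastkd1 at 0.94 ± 0.14 and Tefm, the elongation factor of mitochondrial transcription, at 0.93 ± 0.05.

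The regulators of mitochondrial biogenesis split. Ppara at 1.22 ± 0.15, Esrra at 1.12 ± 0.02 and Esrrg at 0.82 ± 0.10, all nuclear receptors, were among the 4 of 12 that were higher. Myc at -1.89 ± 0.17 and Pprc1 at -0.75 ± 0.03 were the 2 lower. Of all measured genes 13.5% were higher and 16.2% lower, the latter near the share of 2 in 12 here. Nrf1 was at 0.00 ± 0.01 and Gabpa at 0.46 ± 0.04, neither past the rule. Pprc1, Nrf1 and Gabpa were named after their values were seen. Esrra was at 0.60 when all its kept probes were averaged.

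**Figure D4:**
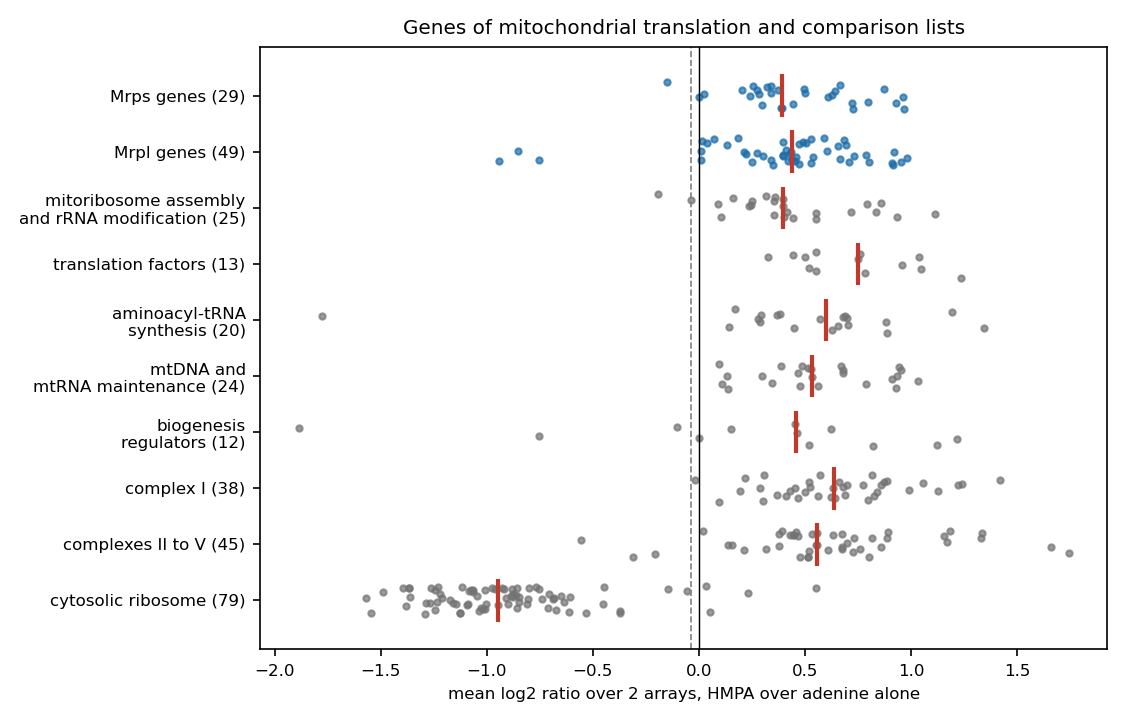
Mean log2 ratio of HMPA over adenine alone (x axis) for each measured gene in 10 lists (y axis, number of genes in brackets); points are genes with random vertical spread, red bars are list medians and the dashed line is the median of all measured genes. The Mrps and Mrpl genes lie mostly between 0 and 1, and the cytosolic ribosome has its median at -0.95.

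Part of the respiratory chain is made on these ribosomes, and its other subunits are encoded in the nucleus. Nuclear complex I genes had a median of 0.64, with 19 of 38 higher and 0 lower, beside 13.5% and 16.2% of all measured genes. Ndufs1 was at 1.42 ± 0.37 and Ndufb5 at 1.24 ± 0.02. Complexes II to V had a median of 0.56, with 20 of 45 measured genes higher and 0 lower, led by Cox7a1 at 1.74 ± 0.16 and Sdha at 1.66 ± 0.04. The 13 protein genes of mitochondrial DNA were not matched by name on this array, so the products of these ribosomes are not analysed here.

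The cytosolic ribosome went the opposite way to the mitochondrial one. Of 79 measured genes named Rps or Rpl with a digit, 61 were lower by the 1.5-fold rule and 34 by the 2-fold rule. Of all measured genes 16.2% and 7.72% were lower by those rules. None of the cytosolic genes was higher, beside 13.5% and 6.65% of all measured genes. Their median was -0.95, at -0.83 on array 1 and -1.11 on array 2, and it lay between -1.11 and -0.70 under every alternative run. Rps12 was at -1.57 ± 0.07, Rps20 at -1.55 ± 0.20, Rpl12 at -1.49 ± 0.30 and Rps4x at -1.39 ± 0.19. Many cytosolic ribosomal genes have near-identical pseudogene copies that a probe can also meet. Mrpl23, Mrpl52 and Mrpl33 lay between the quartiles of the cytosolic genes, -1.15 and -0.73, and no other member did.

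**Figure D5:**
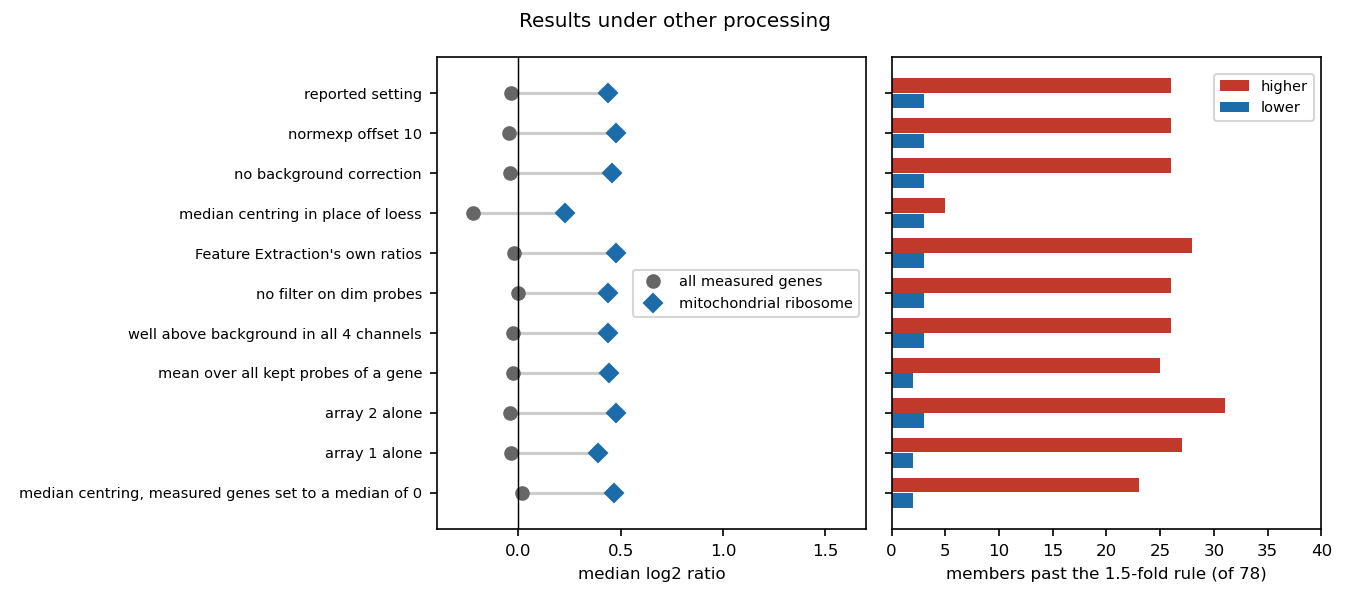
Left, median log2 ratio (x axis) of the 78 mitochondrial ribosome genes (blue diamonds) and of all measured genes (grey circles) under the reported setting and 10 alternatives (y axis); right, the number of members past the 1.5-fold rule as higher (red) or lower (blue). Median centring moves both medians down and leaves 5 members higher (6.41%), beside 7.81% of all measured genes. The medians lie 0.45 apart there and 0.47 apart under the reported setting.

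Markers of cell types differed widely between the diets, those of the tubule in the same direction as most of these genes. All 9 proximal tubule markers were higher with HMPA, with a median of 2.64 and a range of 0.69 to 5.03. Their summed normalised intensity was 32930 and 40655 with adenine alone and 246658 and 193761 with HMPA on arrays 1 and 2. All 5 collecting duct markers were higher (sums of 2187 and 2301 against 10247 and 9269), as were 3 of 5 for the loop and distal tubule (37589 and 39890 against 51013 and 49131). All 7 macrophage markers were lower, with a median of -2.05 (14417 and 15344 against 3405 and 3213). All 5 fibroblast markers were lower too, with a median of -2.82 (100380 and 105747 against 16471 and 15290). For every marker list the background was 13.5% of all measured genes higher and 16.2% lower.

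The other marker lists moved less or were small. The 3 red cell markers were higher (3082 and 4113 against 72014 and 55762). Of 5 podocyte markers 2 were lower, of 6 lymphocyte markers 1 was higher, and of 5 endothelial markers none was called. Both measured adipocyte markers were lower, and Lep was not measured. Of the liver genes Alb was higher and Ttr was not, neither well above background in all 4 channels. All 9 proximal tubule markers were well above background in all 4 channels, in both groups. The part of these shifts in the ratios of the mitochondrial ribosome genes was not tested. In whole tissue, fewer cells of a type and less RNA per cell cannot be told apart.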

How the data were processed

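Kidney RNA was hybridised to 2 dual-colour Agilent mouse arrays. QIAzol extraction and T7-primed labelling are given per the labels' protocols. The authors' scans were quantified by Feature Extraction 12.2.0.7 per the file headers and by version 9.5 per the submitters' processing notes. Intensity, as mean spot signal and local median background, was deposited unnormalised. The authors also deposited a log10 ratio of red over green made by the scanner software, which served as an alternative here. Their value table held the same log10 ratio to within 0.00499, unturned, with a median of 0 per array. The sign was turned by the dyes in the labels. From the intensities, limma 3.58.1 (R 4.3.3) applied normexp with an offset of 50 and loess within each array, with control and flagged spots at weight 0. A check on simulated spots asked only that known ratios kept their sign and that the median of unchanged spots stayed near 0. It did not vary the weights or compare loess with median centring. Of 41174 probes, 25138 were kept as well above background in the same diet on both arrays. A gene took its brightest kept probe, and means, counts and figures used Python 3.11.15, numpy 2.4.6, pandas 2.3.3 and matplotlib 3.10.9. Accession numbers gave 118 of the 132 member probes their current symbol.

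The members, lists, motifs and markers were chosen with earlier results of these data known. The genes named were the 12 highest and 12 lowest members, members whose probes differ in sign, the Mrps18 relatives, and up to 4 genes of each other list past the 1.5-fold rule by size, and others are said to be chosen after their values were seen or are named for a disagreement between probes or arrays. Protein sequences of the Mrps18 relatives are not used here. No test was made, since arrays taken as 1 RNA sample per diet leave no spread between samples, and the number of arrays limits the precision.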

Additional observations from a re-analysis of the deposited data

How the results depend on the processing

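Every alternative kept the members' median above 0 and above that of all measured genes. The largest move came from median centring in place of loess. It gave medians of 0.23 for the members, 0.16 for Mrps and 0.24 for Mrpl genes, and -0.22 for all measured genes. By the 1.5-fold rule 5 members (6.41%) were higher, beside 7.81% of all measured genes. There were 26 members above 0 on both arrays and 1 lower by the 2-fold rule, with no share over all measured genes taken beside them. The Mrps median was 0.50 with a normexp offset of 10, 0.42 with no background correction, 0.54 with the scanner software's own ratios and 0.40 after measured genes were set to a median of 0 (chosen after seeing the data). It was 0.41 on each array alone. Those moves exceed the distance between the array medians of this list. Gene by gene, however, each array lay a median of 0.11 from the mean of both. The cause of the moves was not tested. The count of 0 higher members by the 2-fold rule became 3 with an offset of 10 and 1 with no background correction. It became 5 with the scanner software's ratios and 1 with the mean over kept probes. It was 1 after measured genes were set to a median of 0, and 2 to 8 on single arrays. The count of lower members by that rule was 1 on each array alone. No share of all measured genes by the 2-fold rule was taken under these settings, so the counts have no background beside them. By the 1.5-fold rule 13.5% of all measured genes were higher under the reported setting. That share was 17.2% with an offset of 10, 15.4% with no background correction and 22.5% with the scanner software's ratios. It was 12.4% with the mean over kept probes.

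Without array 1, Mrpl12, Mrpl28, Mrpl42, Mrpl46, Mrps18b, Mrps22 and Mrps26 lost their 1.5-fold call. In all 31 members (39.7%) were then higher, beside 15.2% of all measured genes. Without array 2, Mrpl4, Mrpl23, Mrpl37, Mrps2, Mrps34 and Mrps35 lost theirs. In all 27 members (34.6%) were then higher, beside 14.1% of all measured genes. No paired analysis was possible because the arrays were taken as 1 RNA sample per diet and no test was made.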
